A study of Mus musculus with 4 samples.

Results

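The DEAD and DEAH box RNA helicases were taken as all autosomal protein-coding genes with a Ddx or Dhx symbol and a number in GENCODE, leaving out Ddx58 and Dhx58. This gave 49 genes, 34 with a Ddx and 15 with a Dhx symbol, of 50600 genes in the deposited tables, of which 21764 were protein-coding. A further 5 genes with such a symbol did not enter: Ddx58, Dhx58, the antisense gene Dhx58os, Ddx3x on chromosome X and Ddx3y on chromosome Y. The members lay on 14 autosomes, with 7 each on chromosomes 8 and 11 and 5 each on chromosomes 5 and 9. The rule used symbols, gene types and chromosomes and no expression value.

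The data were RNA-seq read counts from 4 libraries of T helper 17 (Th17) primary cells of C57BL/6NJ mice. This helper T cell type secretes IL-17 family cytokines, and here it was differentiated from CD4 T cells, as the name of the linked protocol has it. The libraries were labelled biological replicates 1 to 4 under 1 donor entry, with sex not collected and age and developmental stage unknown, and no treatment, genotype or second cell type was given. The assay is labelled total RNA-seq, whereas the name of the linked library protocol refers to poly(A)+ RNA. Each table's header names a 24 hr sample, a time absent from the labels. Nothing states that the libraries came from separate mice or cultures, so all p-values measure only the spread between these 4 libraries.

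DEAD and DEAH box proteins use ATP to unwind short RNA duplexes or to strip proteins from RNA, and are named after the residues of their conserved motif II, the ATP-binding Walker B motif. DEAD box proteins pry duplexes apart locally, while DEAH box proteins move along a strand and are often switched on by partner proteins with a G-patch domain. In T cells, as in other dividing cells, they serve each step of RNA life: ribosome assembly in the nucleolus, splicing, export through the nuclear pore, translation and decay. Ddx5 has also been described as a coactivator of transcription in Th17 cells.

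The libraries held between 19332509 counts (replicate 2) and 48558772 counts (replicate 4), and protein-coding genes took 98.7% to 98.9% of them. Levels are given as TPM: the deposited counts were divided by each gene's merged exon length and scaled to the same sum in each library. A count of 3 in a gene of 1 kb equalled between 0.206 and 0.518 TPM. Of the markers looked up to check the label, all 5 Th17 genes (Il17a, Il17f, Il23r, Ccr6, Rora) and all 4 T cell genes were above 1 TPM. Il17f was at 557, 391, 501 and 521 TPM in replicates 1 to 4, and was called variable between libraries (edgeR adjusted p = 0.0470). The 4 myeloid markers had no count, the 3 B cell markers together ranged from 0 to 0.521 TPM, and Cd8a was at 0.101 TPM. The libraries differed in the Y-linked helicase Ddx3y, at 77.8, 58.9, 0.240 and 0.0925 TPM, while its X-linked counterpart Ddx3x was at 834, 798, 887 and 805 TPM. Ddx3y was thus high in replicates 1 and 2 and near 0 in replicates 3 and 4, so the 4 libraries were not repeats of 1 RNA sample. Neither gene is a member, and any part of this difference in the members' values was not tested. In bulk RNA a lower level in each cell and a smaller share of expressing cells cannot be told apart.

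The 12 bases that encode motif II set the members into classes, shown here because the symbol of a gene does not always match its motif. The stretch was sought by name in the coding sequence of each member's longest coding transcript (GENCODE M21). It had to lie downstream of codons for GKT or GKS, the letters of the ATP-binding motif I. Any such codons were accepted, so they need not be motif I itself: in Ddx10 they began at codon 2 and motif II at codon 222. Codons for the DEAD motif were found in 26 members, all with a Ddx symbol. Codons for the DEAH motif were found in 9 members, of which 8 had a Dhx symbol and the ninth was Ddx11. In a further 6 members the third codon was not one for alanine but the fourth still encoded aspartate (Ddx21, Ddx28, Ddx39, Ddx39b, Ddx50 and Ddx52), and in 7 the same held with a histidine codon at the end (Ddx60, Dhx9, Dhx29, Dhx30, Dhx34, Dhx36 and Dhx57). No match was found in Dhx32 with these letters. The same search found DEAD codons in 20 (0.0924%) and DEAH codons in 19 (0.0878%) of 21648 other protein-coding genes. The 26 DEAD genes used 12 different strings of 12 bases, the most frequent being GATGAAGCAGAC in 5 members. Windows of 48 bases that lie within 1 exon follow, 5′ to 3′ on the coding strand, with the 4 motif II codons in capitals; they cover the highest member of several classes and both genes of 4 related pairs.
Ddx5: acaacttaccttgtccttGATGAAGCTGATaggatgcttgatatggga
Ddx17: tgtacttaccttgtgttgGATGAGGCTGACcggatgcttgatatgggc
Ddx19a: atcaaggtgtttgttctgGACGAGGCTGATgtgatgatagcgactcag
Ddx19b: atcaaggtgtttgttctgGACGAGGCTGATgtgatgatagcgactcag
Ddx39: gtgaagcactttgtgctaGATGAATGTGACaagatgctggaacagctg
Ddx39b: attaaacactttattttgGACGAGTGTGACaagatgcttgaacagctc
Ddx21: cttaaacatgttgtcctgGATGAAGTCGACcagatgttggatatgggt
Ddx50: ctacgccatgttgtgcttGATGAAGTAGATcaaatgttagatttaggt
Dhx15: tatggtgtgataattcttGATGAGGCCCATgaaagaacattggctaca
Dhx8: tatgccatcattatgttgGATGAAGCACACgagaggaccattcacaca
Ddx11: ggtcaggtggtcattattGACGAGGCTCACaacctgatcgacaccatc
Dhx36: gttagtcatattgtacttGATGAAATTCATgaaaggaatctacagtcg
Dhx30: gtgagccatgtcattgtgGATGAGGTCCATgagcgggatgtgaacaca

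All of these windows are coding exon sequence of mm10. On the minus strand, the Ddx5 window is chr11:106785175-106785222 in exon 7, and that of its relative Ddx17 is chr15:79538857-79538904, also in exon 7. The Ddx19a window is chr8:110979068-110979115 and that of its neighbour Ddx19b is chr8:111011317-111011364, both in exon 8 on the minus strand. The windows of Ddx39 (chr8:83721092-83721139, exon 5) and Ddx39b (chr17:35247072-35247119, exon 4) are on the plus strand. Ddx21 (chr10:62591863-62591910) and Ddx50 (chr10:62640493-62640540) both carry it in exon 6 on the minus strand of chromosome 10, where the 2 genes are neighbours. The Dhx15 window is chr5:52171478-52171525 (minus strand, exon 4), that of Dhx8 is chr11:101752122-101752169 (plus strand, exon 14) and that of Ddx11 is chr17:66138156-66138203 (plus strand, exon 10). The Dhx36 window is chr3:62493836-62493883 (minus strand, exon 8) and that of Dhx30 is chr9:110087655-110087702 (minus strand, exon 8). Within the pairs, Ddx19a and Ddx19b were identical over all 48 bases, Ddx5 and Ddx17 shared 38, Ddx39 and Ddx39b shared 37, and Ddx21 and Ddx50 shared 36. The third codon is GCN, for alanine, in Ddx5, Ddx17, Ddx19a, Ddx19b, Dhx15, Dhx8 and Ddx11, GTN in Ddx21, Ddx50 and Dhx30, TGT in Ddx39 and Ddx39b, and ATT in Dhx36.

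Nearly the whole family was expressed in Th17 cells. Of 49 members, 45 (91.8%) were above 1 TPM by edgeR's quasi-likelihood test at an adjusted p under 0.05, against 45.9% of all 21764 protein-coding genes tested. A further 3 members (6.12%; Ddx4, Ddx25 and Ddx60) were below 1 TPM, against 51.7% of all protein-coding genes, and Ddx43 was on neither side. In every library 44 members exceeded 10 TPM and 23 exceeded 100 TPM, cut-offs that were not counted over all genes. By the level test set at 10 TPM, 45 members and 7672 of 21764 protein-coding genes were above. The median of the members' mean levels was 95.3 TPM, while that of all protein-coding genes was 0.411 TPM and that of all protein-coding genes above 1 TPM was 32.5 TPM. The median member ranked at percentile 90.1 of protein-coding genes, and 11 members were among the 1000 highest.

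**Figure D1:**
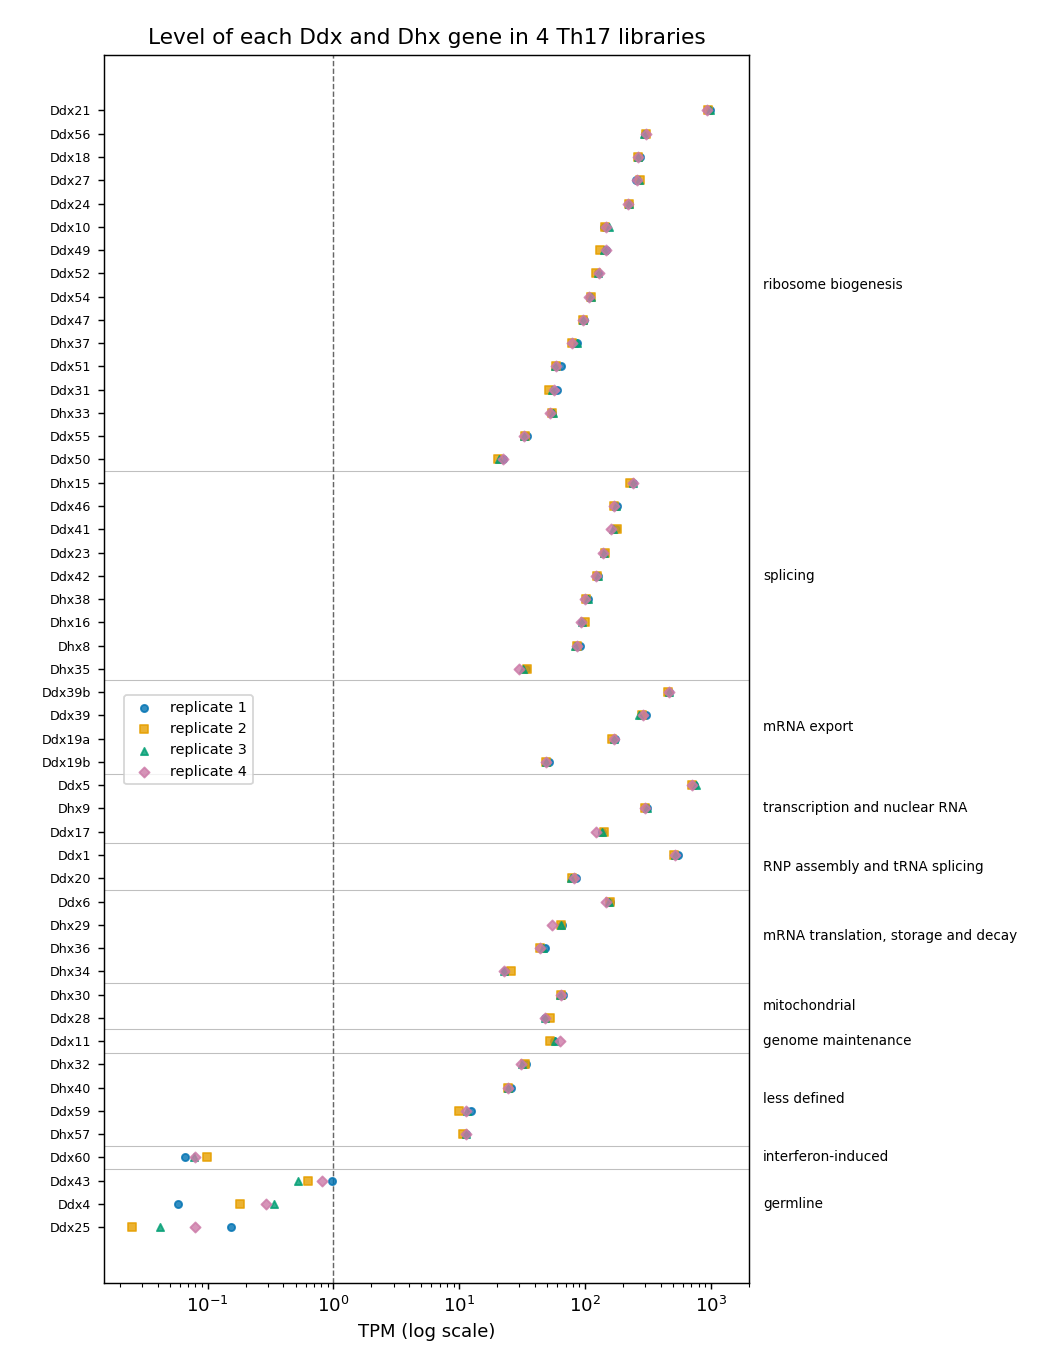
Level of each of the 49 helicase genes in each of the 4 libraries, in TPM on a log axis, grouped by role and ordered by mean; each symbol is 1 library and the dashed line marks 1 TPM. The members above 1 TPM run from Dhx57 at 11.2 TPM to Ddx21 at 958 TPM with the 4 libraries nearly on top of each other, while Ddx60 and the 3 germline genes lie left of the line.

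The summed level of the 49 genes was 7509, 7316, 7431 and 7264 TPM in replicates 1 to 4, and their counts made up 1.06% to 1.08% of each library. The 5 highest members (Ddx21, Ddx5, Ddx1, Ddx39b and Dhx9) held 40.3% of that sum and the highest 10 held 58.7%. Along the order of levels, the ranges of 28 of the 48 pairs of neighbours overlapped between libraries. The 4 highest members were each separated from the next, with no overlap.

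Ribosome biogenesis was the largest role, with 16 genes, all above 1 TPM. Together they reached 2940.3 ± 38.6 TPM (SD, n = 4), which was 39.8% of the members' sum. Ddx21, a nucleolar helicase that binds pre-ribosomal RNA and also acts in transcription by RNA polymerases, was the highest of all 49 members and ranked 117 among protein-coding genes. Its level was 975, 949.9, 984 and 922 TPM in replicates 1 to 4 (ENSMUSG00000020075, mm10 chromosome 10, 62580251 to 62602281). The highest and lowest libraries differed by 1.07-fold. Ddx56, which acts in assembly of the large ribosomal subunit, was at 298, 307, 295 and 304 TPM. Ddx18, another nucleolar helicase for the large subunit, was at 275, 263, 263 and 263 TPM, with replicate 1 above the 3 others, which lay together. The level of Ddx18 is uncertain because 55.9% of the 50-base words in its transcripts are also held by other genes, processed pseudogenes such as Gm16433 foremost, and reads that map to several places were not counted. By merged exon length the lowest of the role was Ddx50, the chromosomal neighbour of Ddx21, at 22.4, 20.4, 20.7 and 22.3 TPM. The order changed when each gene's length was exchanged for that of its longest coding transcript and the library scaling was kept. On that scale, which is not TPM, Ddx50 would be at 85.7, above Ddx31 at 60.1, Ddx55 at 63.1 and Ddx51 at 64.9. Between Ddx18 and Ddx50 by merged exon length lay Ddx27, Ddx24, Ddx10, Ddx49, Ddx52, Ddx54, Ddx47, Dhx37, Ddx51, Ddx31, Dhx33 and Ddx55. Their means ran from 33.3 TPM (Ddx55) to 264 TPM (Ddx27). Ddx49 shares 25.1% of its words with Homer3, a gene that overlaps it on the opposite strand. Words were compared on either strand while reads were counted by strand. This share therefore does not mark the level of Ddx49 as uncertain in the way it does for Ddx18.

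The 9 splicing helicases were all above 1 TPM and summed to 1166 ± 19.7 TPM (SD, n = 4), 15.8% of the members' sum. Dhx15, which takes apart the spent spliceosome after the intron is released, was the highest, at 242, 229, 239.6 and 239.9 TPM in replicates 1 to 4. Ddx46, which acts as the branch site is first engaged, was at 180.5, 169, 177 and 169 TPM. Ddx41, a helicase of the catalytic spliceosome known from inherited myeloid neoplasia, was at 174, 178, 167 and 161 TPM. Ddx46 was highest in replicate 1 and Ddx41 in replicate 2, and the 2 genes overlapped between libraries. The lowest splicing member, Dhx35, was at 33.9, 34.4, 32.2 and 30.0 TPM, which is still above all libraries of Dhx40. Dhx16, which drives activation of the spliceosome, was at 94.1, 99.2, 95.0 and 92.9 TPM, and Dhx8, which releases the spliced mRNA, at 91.6, 85.9, 83.3 and 86.2 TPM. Ddx42, a helicase of early spliceosome assembly related to Ddx46, was at 126, 124, 127 and 123 TPM. Ddx23 and Dhx38 had means of 142 TPM and 103 TPM.

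Export of mRNA was represented by 4 genes, all above 1 TPM, with a sum of 967 ± 19.6 TPM (SD, n = 4) or 13.1% of the members' sum. Ddx39b, the helicase that loads the TREX export complex onto mRNA, was at 463, 457, 462 and 465 TPM in replicates 1 to 4. Its spread was small, with an SD of 3.50 TPM. Its close relative Ddx39 was at 303, 283, 270.4 and 291 TPM, lower than Ddx39b in every library. Ddx19a and Ddx19b, 2 neighbouring genes on chromosome 8 whose product remodels mRNA-protein particles at the outer face of the nuclear pore, were at 173, 163, 168 and 169.6 TPM and 51.8, 49.2, 49.3 and 49.3 TPM. Ddx19a was above Ddx19b in every library. The level of Ddx19a is uncertain because 28.1% of its 50-base words are also held by Ddx19b. The same words make up 12.4% of those of Ddx19b. Ddx39b was the only member with snoRNA genes inside it on the same strand, 2 in number, and no member overlapped a protein-coding gene on its own strand. A gene on the opposite strand overlapped 13 members, and counting was by strand.

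Transcription and nuclear RNA processing held 3 members, Ddx5, Dhx9 and Ddx17, which summed to 1165 ± 34.6 TPM (SD, n = 4) or 15.8% of the members' sum. Ddx5, a coactivator that also helps process microRNA precursors and splice mRNA, was the second highest member, at 729, 714, 759 and 706 TPM in replicates 1 to 4 (ENSMUSG00000020719, mm10 chromosome 11, 106780355 to 106789185). It ranked 175 among protein-coding genes. Dhx9, a nuclear helicase that resolves double-stranded RNA and RNA-DNA hybrids, was at 312, 298, 312 and 298 TPM. Ddx17, the relative that pairs with Ddx5 in many complexes, was at 136, 140.4, 136 and 122 TPM, lowest in replicate 4. No library of Ddx17 reached any library of Ddx5.

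Of the 2 members that act in ribonucleoprotein assembly and tRNA splicing, Ddx1 was far higher. Ddx1, a subunit of the tRNA ligase complex, was at 544, 511, 517 and 519 TPM in replicates 1 to 4. Ddx20, also called Gemin3, a subunit of the SMN complex that builds spliceosomal ribonucleoproteins, was at 84.7, 78.8, 76.9 and 81.5 TPM. The level of Ddx1 depends on the length used. Its merged exons in the deposited tables span 2507 bases while its longest coding transcript in GENCODE M21 has 4842. Reads were counted over the merged exons only, so any reads from other bases of that transcript did not enter. Dividing by 4842 would give 271 and rank 11 among members rather than 3, but it can understate the level.

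The 4 members of translation, storage and decay were lower, with a sum of 286 ± 12 TPM (SD, n = 4) or 3.87% of the members' sum. Ddx6, which represses translation and promotes decapping in processing bodies, was at 158, 156, 156 and 147 TPM in replicates 1 to 4. Dhx29, which helps the small ribosomal subunit scan structured leaders, was at 65.8, 64.9, 64.9 and 54.5 TPM. Both were lowest in replicate 4, and the 3 other libraries lay close together. Dhx36, which resolves G-quadruplexes, was at 48.2, 43.6, 46.5 and 44.0 TPM, and Dhx34, which acts in nonsense-mediated decay, was at 23.2, 25.6, 22.5 and 22.8 TPM. The libraries of Dhx36 and Dhx34 did not overlap.

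The 2 mitochondrial members were at intermediate levels. Dhx30, which serves assembly of the mitochondrial ribosome, was at 66.9, 64.6, 63.1 and 64.7 TPM in replicates 1 to 4, and Ddx28, which serves the same process, was at 47.7, 52.6, 48.4 and 47.9 TPM. Dhx30 was higher in each library. Ddx11, a DNA helicase of sister chromatid cohesion that is mutated in Warsaw breakage syndrome, was at 56.4, 53.0, 57.5 and 63.0 TPM. It was highest in replicate 4, where most other members were not. The 4 members of less defined function were Dhx32 (33.9, 33.2, 31.7 and 31.2 TPM), Dhx40 (25.9, 24.3, 24.4 and 24.3 TPM), Ddx59 (12.3, 9.89, 11.6 and 11.3 TPM) and Dhx57 (11.4, 10.8, 11.2 and 11.3 TPM). The last 2 were the lowest of the 45 members above 1 TPM, and they overlapped each other.

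The members near or below 1 TPM were the 3 germline helicases and 1 interferon-induced gene. Ddx4, the vertebrate Vasa protein and a standard marker of germ cells, was at 0.0576, 0.182, 0.337 and 0.289 TPM in replicates 1 to 4, from 2, 3, 10 and 12 counts (edgeR adjusted p = 9.47e-06 against 1 TPM). Ddx25, a testis helicase needed for sperm formation, was at 0.154, 0.0249, 0.0416 and 0.0792 TPM, from 13, 1, 3 and 8 counts (edgeR adjusted p = 3.21e-10). With so few counts their order among libraries carries no weight. Ddx43, known as a cancer-testis antigen, was at 0.967, 0.626, 0.523 and 0.809 TPM, from 26, 8, 12 and 26 counts, and was called neither above nor below 1 TPM (edgeR adjusted p = 0.143). Its call turned with the level tested: it was above 0.5 TPM (edgeR adjusted p = 0.045) and below 2 TPM (edgeR adjusted p = 1.91e-06). Ddx60, an antiviral helicase induced by interferon, was at 0.0662, 0.0995, 0.0775 and 0.0791 TPM, from 7, 5, 7 and 10 counts (edgeR adjusted p = 7.81e-11). Genes outside the set that are known from interferon responses, Mov10 and Helz2, were at 2.73 TPM and 25.7 TPM.

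**Figure D2:**
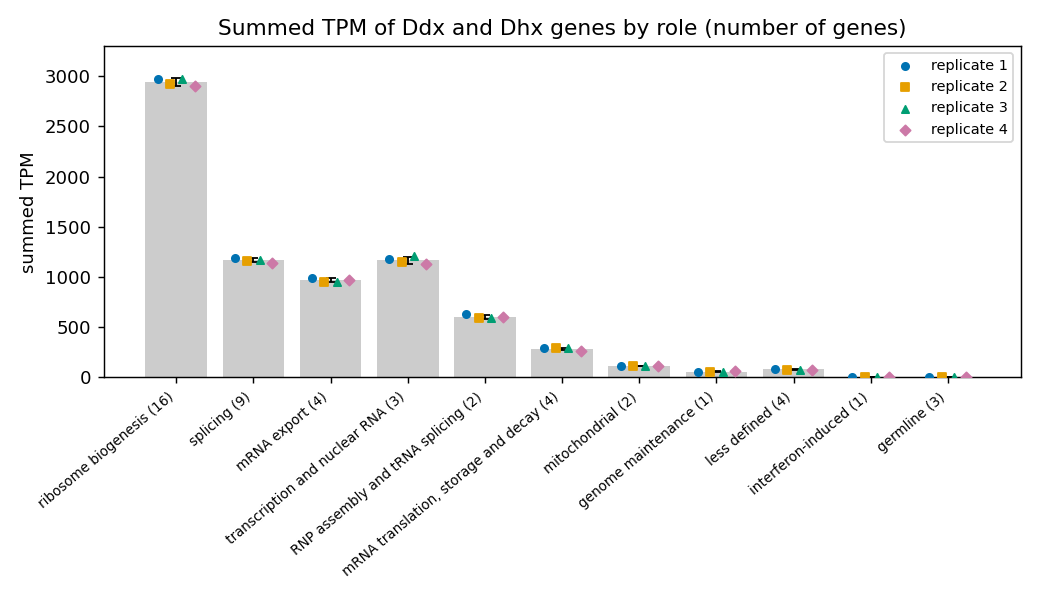
Summed TPM of the helicase genes of each role, with the number of genes in brackets; bars give the mean of the 4 libraries, error bars the SD and symbols each library. Ribosome biogenesis stands at 2940.3 TPM, splicing at 1166 TPM, transcription and nuclear RNA at 1165 TPM and mRNA export at 967 TPM.

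The levels of the motif II classes can be set side by side as a description. The median of mean levels was 137 TPM in the 26 members with DEAD codons, 82.5 TPM in the 9 with DEAH codons, 207 TPM in the 6 with a variant of the third codon before aspartate and 45.6 TPM in the 7 with a variant of the third codon before histidine. Each class held both high and low members: the DEAD class ran from Ddx25 at 0.0749 TPM to Ddx5 at 727 TPM. In the class with a variant of the third codon before histidine, Ddx60 was at 0.0806 TPM and Dhx9 at 305 TPM.

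The levels of related genes were compared within each library, as log2(TPM + 1) of the first minus the second, for 7 pairs. With 4 libraries the exact two-sided sign-flip permutation test cannot go below p = 0.125, so no pair could pass 0.05. All 7 pairs had the same sign in 4 of 4 libraries, and each gave the exact p = 0.125 (0.125 after adjustment over the 7). Ddx21 exceeded its neighbour Ddx50 by 5.42 ± 0.09 (SD, n = 4) on the log2 scale, a mean ratio of 44.8 in TPM with a range of 41.4 to 47.6. This ratio rested on length: the merged exons of Ddx50 span 10129 bases but its longest coding transcript 2535, and by transcript length the ratio was 12.3. Ddx5 exceeded Ddx17 by 2.44 ± 0.08, a mean ratio of 5.46, which was 8.80 by transcript length. Dhx9 exceeded Dhx30 by 2.22 ± 0.05, a mean ratio of 4.71. Ddx19a exceeded Ddx19b by 1.74 ± 0.02, a mean ratio of 3.38, and 1.81 by transcript length, the merged exons of Ddx19b (6742 bases) being much longer than its transcript (3104 bases). In these 4 pairs, then, the first gene was higher by both lengths.

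The 3 remaining pairs were closer. Ddx39 was below Ddx39b by 0.69 (mean difference -0.69 ± 0.07, SD, n = 4), a mean ratio of 0.621. Ddx42 was below Ddx46 (-0.48 ± 0.03), a mean ratio of 0.718. Dhx8 was slightly below Dhx16 (-0.13 ± 0.08), a mean ratio of 0.911 with a range of 0.866 to 0.973. The order of Dhx8 and Dhx16 held only per length: as CPM, without dividing by length, Dhx8 was the higher of the 2 by 0.16 on the log2 scale.

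**Figure D3:**
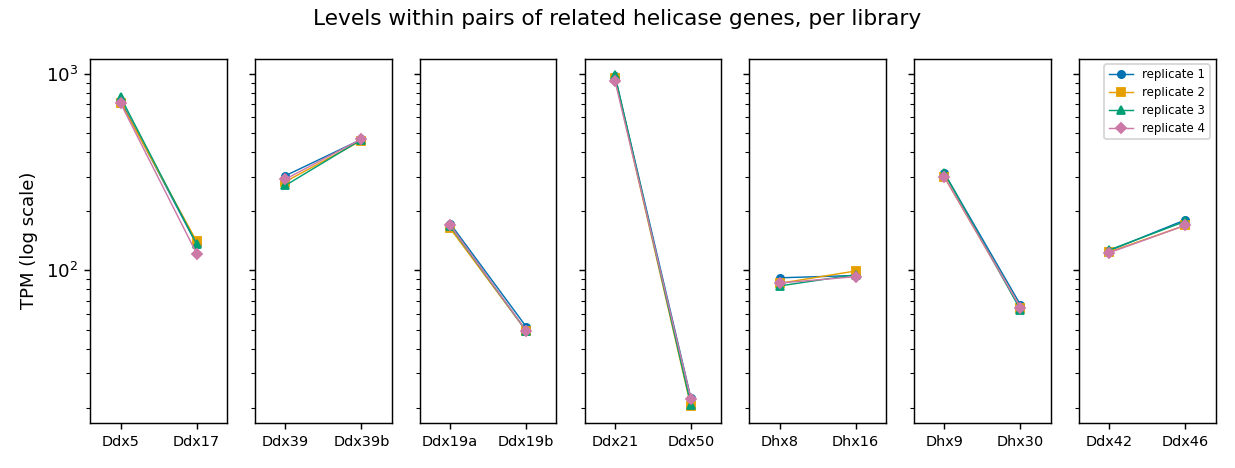
TPM (log axis) of both genes of 7 related pairs, with 1 line and symbol per library. The 4 lines of each pair run in the same direction, steepest from Ddx21 to Ddx50 (mean ratio 44.8) and nearly flat from Dhx8 to Dhx16 (mean ratio 0.911).

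Merged exon length also bears on the order of levels within the family. For 6 members the merged exons were more than 2 times as long as the longest coding transcript, and the median ratio over the 49 members was 1.21. By transcript length Ddx5 ranked first, Ddx21 ranked 2, Dhx15 ranked 3 and Dhx9 ranked 4, and 9 genes were among the 10 highest by both lengths. Ddx1 left the highest 10, but its counts came from fewer bases than that transcript holds. The value moved by more than 1.5 times, in either direction, for 15 members. Only each gene's own length was exchanged, and the library scaling stayed at merged exon lengths, so the new values are not TPM. All counts of a gene were also credited to that single transcript. Dhx15, with 8496 bases of merged exons against 3010 in the transcript, would move from 238 TPM to 671 on this scale. Ddx47, with 6652 against 1764 bases, would move from 96.4 TPM to 364 and from rank 24 to 9. Dhx9 would move from 305 TPM to 635 and Dhx30 from 64.8 TPM to 181.

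The family varied little between the 4 libraries. Of the 46 members with a mean of at least 10 counts, 0 were called variable at an adjusted p under 0.05, in a deviance test that used the dispersion trend from edgeR, against 0.366% of 12849 genes tested, so that a count of 0 in 46 is near the background. Only Dhx29 fell under 0.05 before adjustment (unadjusted 0.0263), and its edgeR adjusted p was 0.822, the smallest of the 46. The count was also 0 with a common dispersion in place of the trend, which called 356 of 12849 genes rather than 47. On simulated counts for those 12849 genes the test found 80% of genes changed 2-fold in 1 library and 51% of those changed 1.5-fold. Smaller differences could thus be missed. The counts were drawn at the same dispersion trend, with changed genes taken from all tested genes, so these shares are not specific to the members.

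The coefficient of variation (CV, SD over mean) of depth-scaled counts had a median of 2.97% over the 45 members above 1 TPM. It ran from 0.519% for Ddx47 to 8.42% for Ddx59. Over 8238 other genes in the same range of abundance the median CV was 4.33%. These genes were not matched to the members in abundance within that range. The members above 1 TPM had a median level of 103 TPM, against 32.5 TPM for all protein-coding genes above 1 TPM. Whether abundance accounts for the lower CV was not tested. The CV was below the dispersion trend in 37 of the 45 members (82.2%) and in 71.5% of those other genes. Ddx47, a nucleolar helicase of the small subunit pathway, was at 98.3, 96.6, 95.3 and 95.6 TPM in replicates 1 to 4 by merged exon length. Ddx59 was at 9.89 TPM in replicate 2 and 12.3 TPM in replicate 1, its lowest and highest, a ratio of 1.24 that was the largest of the 45. The highest library was within 1.1 times the lowest for 30 members and within 1.2 times for 43, with no like count made for other genes. Replicate 2, the shallowest library, held the lowest value of 15 of the 45 members and replicate 4, the deepest, the lowest of 19. Where the lowest values of other genes fell was not counted, so no pattern of the family is shown.

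**Figure D4:**
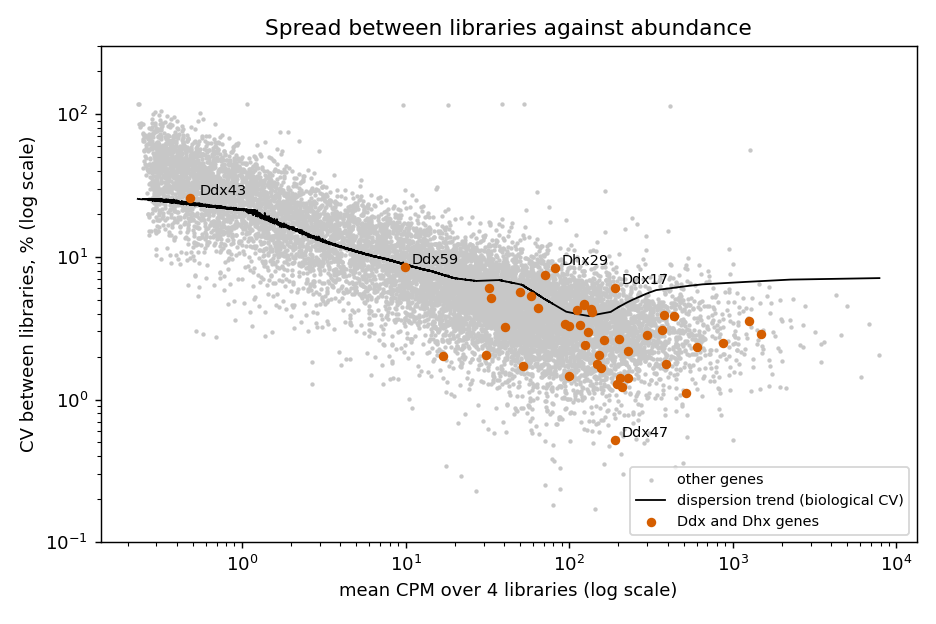
CV between the 4 libraries (%, log axis) against mean CPM (log axis) for the tested genes; orange points are the 46 helicase genes tested, grey points the other genes and the line the dispersion trend. Most helicase genes lie below the line, with Ddx47 at 0.519% and Ddx59 at 8.42%.

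Within that small spread, each gene's deviation was its log2 depth-scaled count in a library minus its own mean. For each role the median over its tested genes was taken. Among roles whose members were above 1 TPM it was largest for Ddx11, the only gene of its role. Taken singly, Ddx59 and Dhx29 varied more, with CVs of 8.42% and 8.34% against 7.47% for Ddx11. Ddx43, with 8 to 26 counts, deviated more than Ddx11, by 0.42, -0.18, -0.43 and 0.19 on the log2 scale in replicates 1 to 4. The median over the 46 tested members was 0.01, -0.01, 0.01 and -0.02 on the log2 scale in replicates 1 to 4. The median over the 4 genes of translation, storage and decay was 0.03, 0.04, 0.04 and -0.06, with Dhx29 the lowest in replicate 4. Ddx11 deviated by -0.05, -0.11, 0.02 and 0.14. The median over the 16 ribosome biogenesis genes stayed between -0.01 and 0.02. Single genes of that role moved more, such as Ddx49, which ranged from 131 to 147 TPM. Among the 45 members above 1 TPM the highest TPM fell in replicate 1 for 24 genes, in replicate 2 for 10, in replicate 3 for 8 and in replicate 4 for 3. The same was not counted over other genes, so this is not shown to be a trait of the family.

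**Figure D5:**
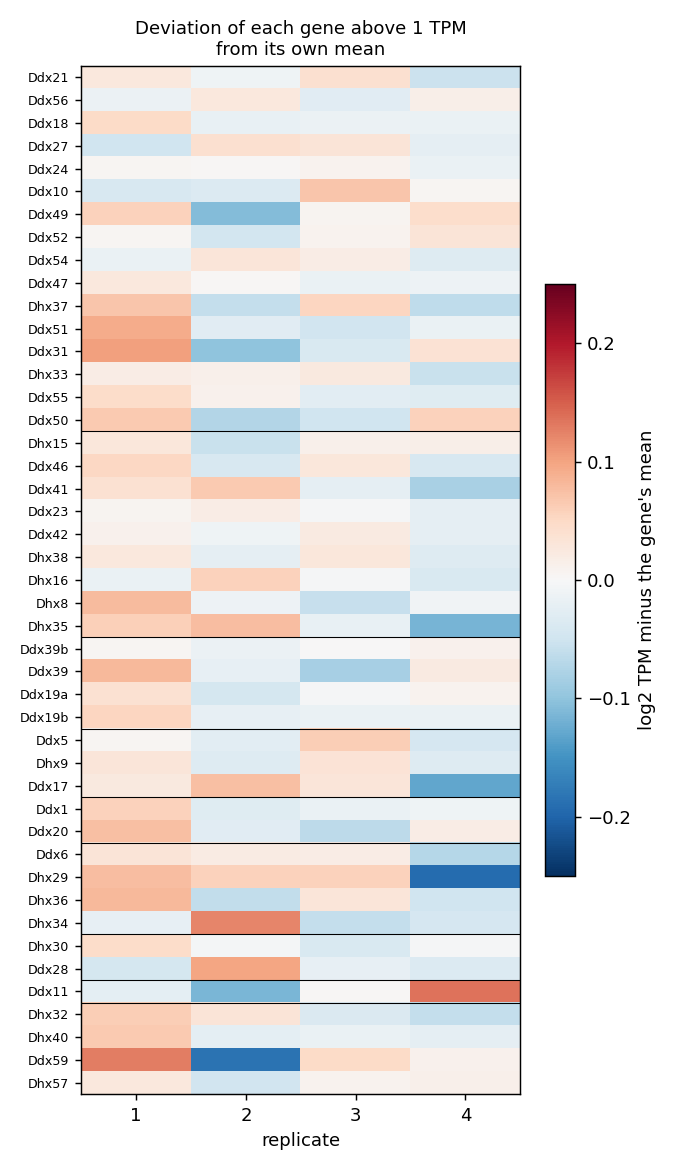
Deviation of log2 TPM from each gene's own mean in replicates 1 to 4, for the 45 helicase genes above 1 TPM, with lines between roles; red is above and blue below the mean. The strongest colours are those of Dhx29 (low in replicate 4), Ddx59 (low in replicate 2) and Ddx11 (high in replicate 4). Replicate 1 is red in most genes, and other genes were not drawn for comparison.

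Other genes of the same machinery were read from lists of related helicases and partners. The 3 eIF4A genes, DEAD box proteins under other symbols, were all above 1 TPM. Eif4a1, the helicase that opens mRNA leaders for translation, was at 1348, 1322, 1357 and 1348 TPM in replicates 1 to 4, higher than Ddx21 in every library. Eif4a3, of the exon junction complex, and Eif4a2 had means of 401 ± 14.9 TPM and 329 ± 10.4 TPM (SD, n = 4). Of 15 helicases of the Ski2 and Upf1 families, 13 were above and 2 below 1 TPM. The highest were Snrnp200, a spliceosomal helicase, at 249.6 ± 13.6 TPM and Mtrex, of the nuclear exosome, at 231 ± 6.65 TPM (SD, n = 4). The lowest, the piRNA factor Mov10l1, had no count, and 3 counts over the 4 libraries would have equalled 0.0167 TPM. Of the 2 DEAH-like genes with other symbols, Ythdc2 was at 14.0 TPM and the germline gene Tdrd9 had no count, where 3 counts would have equalled 0.0129 TPM.

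The listed partner genes of the helicases were all above 1 TPM by the same test, against 45.9% of all protein-coding genes tested. Of the 19 G-patch proteins, among them activators of Dhx15, 19 were above, with a median of 36.1 TPM. Rbm17 was the highest at 296 ± 13.5 TPM (SD, n = 4), Gpatch4 followed at 164 ± 4.32 TPM, and Cmtr1 was the lowest at 5.46 ± 0.391 TPM. The 11 TREX and nuclear pore genes that act with Ddx39b and Ddx19 had a median of 90.9 TPM, from Gle1 at 48.5 TPM to Chtop at 195 TPM and Thoc7 at 267 TPM. The 5 tRNA ligase genes had a median of 101 TPM: Rtcb, the ligase that works with Ddx1, was at 376 ± 8.71 TPM, Rtraf at 269 TPM and Zbtb8os at 23.0 TPM. The 7 SMN complex genes had a median of 63.5 TPM, with Gemin6 at 138 TPM, Smn1 at 123 TPM and Gemin4, a neighbour of Ddx20 in that complex, at 1.71, 2.13, 1.29 and 1.31 TPM in replicates 1 to 4. Gemin4 was far below the Ddx20 level in every library. The 10 partners of Ddx6 had a median of 72.8 TPM, led by Lsm14a at 126 TPM and Cnot1 at 99.9 TPM, with Dcp1b lowest at 5.61 TPM. In each of these lists 0 genes were called variable between libraries, against 0.366% of all genes tested.

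Promoter sequences of 300 bases (RefSeq, GRCm38.p6) were matched for 44 of the 49 members, with 55 start sites. Members were matched by gene identifier, or by symbol where that failed, and the other genes above 1 TPM by symbol only. Short words were counted in them as a description, on both strands. CACGTG, the E-box bound by Myc and related factors, was present in 7 of 44 genes (15.9%), in 8.09% of all 27025 genes of the table and in 12.6% of 7983 other protein-coding genes above 1 TPM. The 7 were Ddx4, Ddx5, Ddx25, Ddx42, Dhx33, Dhx35 and Dhx40, which include members below 1 TPM. CCGGAAG, the core of ETS family sites, was present in 19 of 44 genes (43.2%), against 9.93% of all genes and 23.3% of the other genes above 1 TPM. The 19 included Ddx1, Ddx5, Ddx17, Ddx39b, Dhx8, Dhx9 and Dhx30. The 19 stood at mean levels from 21.4 TPM (Ddx50) to 727 TPM (Ddx5), and a match is not evidence of binding.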

How the data were processed

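The authors counted read pairs in exons with featureCounts 1.4.6-p4 against GENCODE M13 (mm10), per the file headers. Pairs were reverse-stranded with both ends mapped, and reads with several alignments were dropped. The deposited counts are raw whole numbers. No source used here gives a version for the aligner. Symbols came from GENCODE M21 by identifier (50376 of 50600 matched). TPM was computed here from counts and merged exon lengths.

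The level of each protein-coding gene was tested against 1 TPM with edgeR 4.0.16 (R 4.3.3; two-sided quasi-likelihood test of the intercept, with log counts at that level as offset), and variation between libraries with a negative binomial deviance test that took its dispersion from edgeR's trend (one-sided, TMM factors, mean of at least 10 counts); Benjamini-Hochberg adjustment ran over all genes tested. For pairs an exact permutation test flipped the signs of the 4 differences. Alternatives used DESeq2 1.42.0, limma 3.58.1, other factors, filters, levels and lengths, and left out each library. On 3000 genes simulated around 1 TPM, the level test called 97% of 100 genes at 2 TPM and 85% of 100 genes at 0.5 TPM, with 7 false calls.

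A level was called uncertain where at least 25% of a gene's 50-base words occur in transcripts of other genes, on either strand. Ddx49 was excepted, because the gene that shares its words overlaps it on the opposite strand. Motif II codons were sought 40 to 400 codons after any codons for GKT or GKS in GENCODE M21 coding sequences. Protein sequences, which the plan had named, were not used here. Per-library values are given for the 3 highest and the lowest gene of each role, the paired genes and the members not above 1 TPM. Of each partner or related list the 2 highest and the lowest gene are named; Mov10, Helz2, Ddx47, Ddx3x and Ddx3y were named after their values were seen. Members and lists were chosen with earlier results of these data known.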

Additional observations from a re-analysis of the deposited data

Results flagged for a closer look

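Of 49 helicase genes, 7 had 1 library set apart from the other 3 by more of the total range than Dixon's 95% limit for 4 values allows, where chance alone gives about 1 in 20. This was 14.3% of the 49 members, which include genes not above 1 TPM, although all 7 were above it. Among other protein-coding genes above 1 TPM, 495 of 9943 (4.98%) were set apart by the same rule. The sets thus differ in that filter, and whether the shares differ was not tested. The gap as a share of the range was 0.942 for Ddx18, 0.956 for Ddx19b and 0.911 for Dhx40, in each case with replicate 1 the highest. It was 0.855 for Ddx6, 0.921 for Dhx29 and 0.867 for Dhx33, with replicate 4 the lowest. It was 0.842 for Ddx28, with replicate 2 the highest. The differences themselves were small: Ddx19b was at 51.8, 49.2, 49.3 and 49.3 TPM and Ddx28 at 47.7, 52.6, 48.4 and 47.9 TPM in replicates 1 to 4. Dhx40 was at 25.9, 24.3, 24.4 and 24.3 TPM. None of the 7 was called variable between libraries with edgeR's trended dispersion, the smallest edgeR adjusted p being 0.822 (Dhx29), and the cause was not tested.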

How the results depend on the processing

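The count of members above 1 TPM was 45 with each library left out, with DESeq2, with limma, and with TPM over protein-coding genes. It was also 45 with levels of 2 and 10 TPM, and 46 at a level of 0.5 TPM. Of all 21764 protein-coding genes, 10452 were above 0.5 TPM, 9496 above 2 TPM and 7672 above 10 TPM. The count of members below was 3, except 4 at 2 and 10 TPM, where 11924 and 13818 of the 21764 genes were below. It was 0 where genes needed a mean of at least 10 counts, a filter that removes the 3 genes. The count of variable members was 0 under each alternative run. Taking means in place of medians moved the log2 TPM of roles: 4.07 to 4.15 for less defined genes, 7.78 to 7.51 for mRNA export, 5.74 to 5.82 for translation, storage and decay, and 6.96 to 6.84 for splicing. The difference of Dhx8 from Dhx16 reversed to 0.16 as CPM without length. The comparison by transcript length was chosen after seeing the data. Among the 49 members, tested singly, the call changed for Ddx43 alone, at 0.5, 2 and 10 TPM; genes outside the set were not rerun singly. No paired analysis was possible because the libraries form 1 group. Depth limits the 3 members below 1 TPM, with 25 to 29 counts over all libraries.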
